A study of Sus scrofa with 12 samples.

Results

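The proteasome genes described here are the 40 genes whose annotated symbol on a porcine Affymetrix array starts with PSM, out of 6765 genes that have a probe set with a single symbol. Each gene was represented by its probe set with the highest mean over the 12 arrays, and only PSMC2, PSMD1, PSMD11 and PSMF1 had more than 1 probe set, so that the 40 genes came from 46 probe sets. They comprised 7 genes of the alpha ring of the core (PSMA1 to PSMA7), 7 constitutive genes of its beta ring (PSMB1 to PSMB7), 2 immune beta subunits (PSMB8 and PSMB10), 5 ATPases of the cap, 10 other cap subunits, 4 activators (PSME1 to PSME4), the inhibitor PSMF1 and 4 assembly chaperones. PSMD5 and PSMD10 carry cap symbols but were counted with PSMG1 and PSMG3 as chaperones, because their proteins help the cap to assemble and are not part of the finished complex. The third immune subunit, PSMB9, and the ATPase PSMC4 were not analysed here.

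The proteasome is the barrel-shaped protease that degrades proteins tagged with ubiquitin. Its core is built from outer alpha rings, which gate the channel, and inner beta rings, in which PSMB5, PSMB6 and PSMB7 carry the cutting sites, while the cap binds the tagged protein, removes the ubiquitin, unfolds the chain with its ring of ATPases and feeds it into the core. Interferon gamma is known to induce the immune subunits PSMB8, PSMB9 and PSMB10, which replace PSMB5, PSMB6 and PSMB7 in newly built cores, and the activator subunits PSME1 and PSME2, and immune proteasomes are known for making peptides that are shown on class I molecules.

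The series measured RNA of pig cells before and after dedifferentiation, the loss of specialised features in culture, in 2 lineages. Mature adipocytes (MA) were taken from fat tissue, and DFAT cells came from them by ceiling culture, in which the buoyant, fat-laden cells float up and stick to the top wall of a full flask. Granulosa cells (GC) were taken from ovarian follicles, and DFOG cells came from them by culture in vitro. Both cultured populations were harvested at semiconfluence, so in each lineage dedifferentiation cannot be told apart from culture and growth. Each group had 3 arrays labelled as biological replicates, and the breed, age, sex and treatment of the pigs are not given in the sources used here. Separate animals are not named, so a p-value covers only the spread between samples, which may be technical.

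Values are log2 levels, and a difference of 1 is a 2-fold difference. Changes are given with the standard error (SE) of a limma fit over all 23999 probe sets, and a gene was called higher or lower where its Benjamini-Hochberg adjusted p was under 0.05. DFOG replicates 2 and 3 were nearly the same array, with an SD of their differences over probe sets of 0.07, against 0.31 to 0.62 in the 11 other pairs of a group, and were counted as 1 sample, which left DFOG with n = 2 and the other groups with n = 3. The labels of the isolated cells were borne out: in MA against GC, 11 of 12 adipocyte markers were higher and 11 of 14 granulosa cell markers lower. Of all genes with 1 symbol, 26.8% were higher and 22.6% lower. With culture, 11 of 12 adipocyte markers were lower in DFAT, beside 20.4% of these genes. In DFOG, 10 of 14 granulosa cell markers were lower, beside 13.4%. The summed log2 level of the granulosa cell markers was 10.3 to 10.6 in MA and 13.4 to 13.7 in DFAT. It was 16.3 to 16.8 in GC and 13.7 to 13.9 in DFOG. In DFAT against MA, 2 of the 14 granulosa cell markers were higher, 1 lower and 11 not called, with a median change of 0.03. Of all genes with 1 symbol, 20.7% were higher and 20.4% lower there. The sum thus rose in DFAT without a called rise in most of its markers. Of 12 macrophage markers, 9 were lower in DFAT than in MA, and their summed log2 level was 9.50 to 10.5 in MA, 8.38 to 8.90 in DFAT, 8.45 to 8.52 in GC and 8.29 to 8.46 in DFOG. The summed level of 13 lymphocyte markers was 8.34 to 8.71 in MA and 8.20 to 8.41 in DFAT. In such bulk samples, fewer cells of a type and less RNA per cell cannot be told apart. The actin control's 3′ minus 5′ difference, a measure of RNA and cDNA integrity, also moved with culture, being 1.88 ± 0.52 in MA, 0.61 ± 0.33 in DFAT, 1.35 ± 0.55 in GC and 0.39 ± 0.33 in DFOG (mean ± SD), and its part in the changes was tested only as a covariate.

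**Figure D1:**
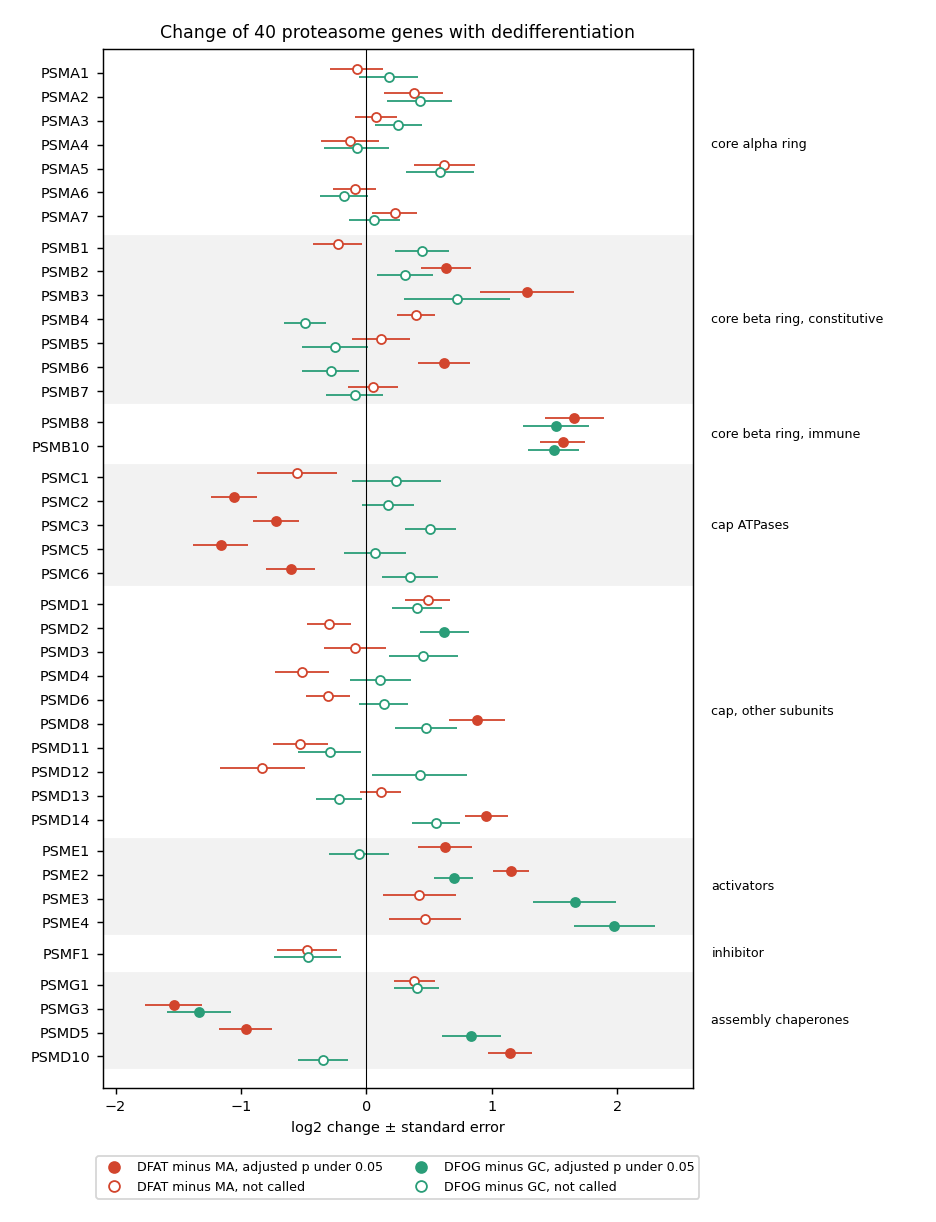
Log2 change of each of the 40 proteasome genes in DFAT against MA (red) and in DFOG against GC (green), with bars for the standard error and filled points for calls at an adjusted p under 0.05. The immune subunits PSMB8 and PSMB10 lie near 1.5 in both lineages, and the cap ATPases lie at -1.16 to -0.55 in DFAT and at 0.07 to 0.51 in DFOG. Directions hold for the deposited scaling, and after poly-A centring 6 of the 8 DFOG calls and 5 of the 16 DFAT calls are lost.

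The proteasome genes changed in both directions. In DFAT against MA, 10 of the 40 were higher and 6 lower, where 15.7% of all probe sets were called higher, 16.4% lower and 32.1% in either direction. The share of members called, 40%, was close to the 41.1% of all genes with 1 symbol, and the median change of the members was 0.10 against -0.07 over all probe sets. In DFOG against GC, 7 members were higher and 1 lower, beside 12.3% and 12.6% of all probe sets (24.9% in either direction, and 20% of the members), and the median change was 0.28 against -0.02. The share of members called higher, 17.5%, was close to the 17.3% of all genes with 1 symbol, of which 30.6% were called in either direction. With all 12 arrays as separate samples and the replicate number as a block, the counts were 10 higher and 2 lower. That block gave same-numbered arrays of all groups, MA and DFAT included, a shared effect. It was therefore not a pairing of GC with DFOG alone, and it counted the nearly identical DFOG replicates apart. PSMC3, PSMD14 (higher) and PSMB4 (lower) were already called with 12 separate arrays and no block, and PSMB3 (higher) was called only with the block as well. Without DFAT replicate 1, PSMA5, PSMC3 and PSMD14 (higher) and PSMB4 (lower) were also called. The members' samples did not overlap between DFAT and MA for 14 genes upward and 9 downward, where 20.2% and 23.8% of all probe sets did so. Between DFOG and GC they did not overlap for 15 genes upward and 5 downward, where the background was 23.9% and 25.1%. Directions depended on the scaling. Centring each array on its poly-A spike controls shifted the median of all probe sets by 0.63 in DFAT against MA and by -0.79 in DFOG against GC, which gave 18 members higher and 1 lower in the first comparison and 1 higher and 11 lower in the second. Of all probe sets, that centring called 28.7% higher and 5.58% lower in the first comparison, and 4.43% and 39% in the second. Changes relative to the median of all probe sets are the same under both scalings.

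The immune beta subunits rose in both dedifferentiations. PSMB8, which takes the place of PSMB5, was at 5.82, 6.47 and 6.29 in MA replicates 1 to 3 and at 7.53, 7.73 and 8.29 in DFAT. It was at 5.56, 5.10 and 5.29 in GC, and at 6.95 in DFOG replicate 1 and 6.71 in the mean of DFOG replicates 2 and 3. Every DFAT sample lay above every MA sample, every DFOG sample lay above every GC sample, and the GC samples were the lowest of all. The rise was 1.66 ± 0.23 in DFAT (3.15-fold, limma adjusted p = 0.000236) and 1.51 ± 0.26 in DFOG (2.85-fold, adjusted p = 0.00144).

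PSMB10, which takes the place of PSMB7, followed the same order of groups. Its levels were 7.41, 7.75 and 7.80 in MA and 9.0, 9.22 and 9.44 in DFAT. In GC they were 6.60, 6.71 and 6.91, and in DFOG 8.07 and 8.39. The cultured and isolated samples of each lineage again did not overlap. PSMB10 rose by 1.57 ± 0.18 in DFAT (2.96-fold, limma adjusted p = 4.69e-05) and by 1.49 ± 0.20 in DFOG (2.81-fold, adjusted p = 0.000237). The difference between the 2 lineages in the size of the rise was 0.14 ± 0.35 for PSMB8 and 0.07 ± 0.27 for PSMB10, and neither passed the test (limma adjusted p = 0.834 and 0.892). Both rises in DFAT and both in DFOG kept their call with any array left out and with the actin difference as a covariate. With poly-A centring the DFOG rises were 0.72 and 0.70 and were not called. Relative to the median of all probe sets they were 1.53 and 1.51, a measure that centring of arrays cannot change for any gene.

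The constitutive partners of these 2 subunits were not called in either lineage. PSMB5 was at 10.24, 10.66 and 10.83 in MA, 10.65, 10.62 and 10.82 in DFAT, 11.78, 11.17 and 11.07 in GC, and 11.37 and 10.81 in DFOG. Its groups overlapped in both lineages, with changes of 0.12 ± 0.23 and -0.25 ± 0.26, neither of them called. PSMB7 was at 11.19, 11.42 and 11.46 in MA, 11.89, 11.05 and 11.28 in DFAT, 11.36, 11.35 and 11.36 in GC, and 11.22 and 11.31 in DFOG. The 3 GC samples were almost equal and lay just above DFOG, and the DFAT samples spanned those of MA. Its changes were 0.05 ± 0.20 in DFAT and -0.09 ± 0.23 in DFOG, neither called. Taken within each sample, the log2 difference PSMB8 minus PSMB5 was 1.54 larger in DFAT than in MA and 1.76 larger in DFOG than in GC, a shift of 2.90-fold and 3.39-fold in their ratio. For PSMB10 minus PSMB7 the shifts were 1.51 and 1.59, or 2.85-fold and 3.0-fold. Probe sets differ in brightness, so these shifts say nothing of which subunit was more abundant.

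**Figure D2:**
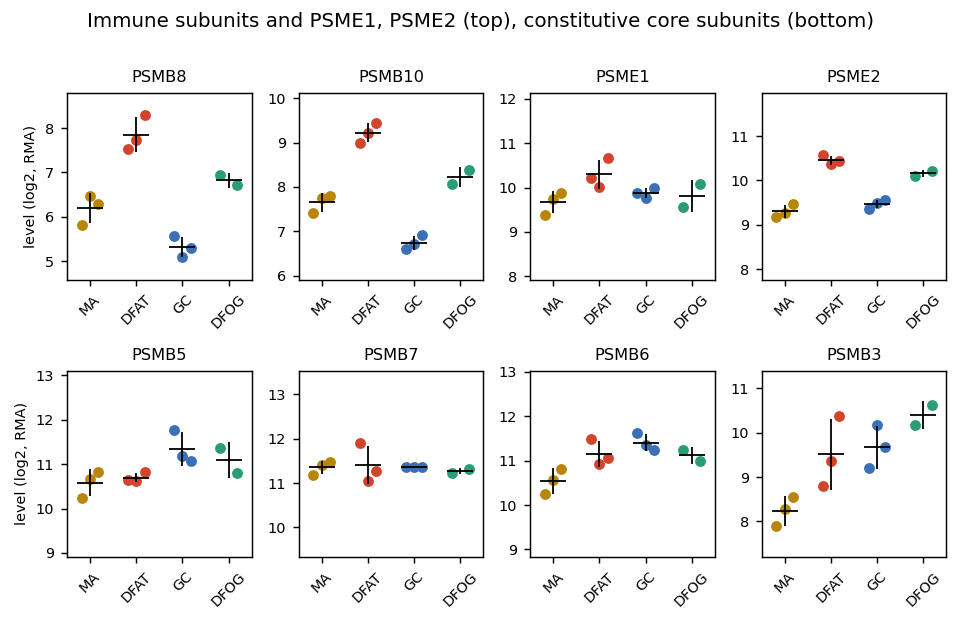
Log2 RMA level of 8 genes in every sample of the 4 groups, with a horizontal line at the group mean and a bar for 1 SD (n = 3, and n = 2 in DFOG). Every panel spans the same number of log2 units but starts at its own level. PSMB8, PSMB10 and PSME2 lie higher in every DFAT and DFOG sample than in any sample of the cells they came from, while PSMB5 overlaps in both lineages and PSMB7 overlaps between MA and DFAT.

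The activators split into the interferon-inducible ring of PSME1 and PSME2, which opens the core gate without ubiquitin, and the nuclear activators PSME3 and PSME4. PSME2 was at 9.18, 9.27 and 9.46 in MA, 10.57, 10.36 and 10.43 in DFAT, 9.37, 9.49 and 9.55 in GC, and 10.11 and 10.22 in DFOG. All cultured samples lay above all isolated samples of both lineages. PSME2 rose by 1.15 ± 0.14 in DFAT (limma adjusted p = 8.14e-05) and by 0.69 ± 0.16 in DFOG (adjusted p = 0.00755), the latter turning to -0.10 with poly-A centring. With the actin covariate, the DFOG rise was 0.69 and not called.

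PSME1, whose protein shares a ring with that of PSME2, was at 9.39, 9.74 and 9.88 in MA, 10.21, 10.02 and 10.66 in DFAT, 9.87, 9.76 and 9.99 in GC, and 9.55 and 10.07 in DFOG. DFAT lay above MA without overlap, whereas the DFOG samples spanned those of GC. The rise of 0.63 ± 0.21 in DFAT was called (limma adjusted p = 0.0429), but the call was lost without MA replicate 1 or 2, without DFAT replicate 1 or 3, and without any of the GC arrays, with changes of 0.45 to 0.77 over all arrays left out in turn. The change in DFOG was -0.06 ± 0.24 and was not called. Whether PSME1 changed differently in the 2 lineages was tested and not called, at 0.69 ± 0.32 (limma adjusted p = 0.16).

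The nuclear activators rose in the granulosa lineage. PSME4, a large single-chain activator, was at 7.88, 7.55 and 7.66 in GC and at 10.16 and 9.18 in DFOG, and at 9.18, 8.38 and 8.57 in MA and 9.55, 8.89 and 9.10 in DFAT. GC stood below all other groups, and MA and DFAT overlapped. The rise in DFOG was 1.98 ± 0.32 (3.94-fold, limma adjusted p = 0.000927), the largest of any member in either dedifferentiation on the deposited scale, and the change in DFAT, 0.47 ± 0.29, was not called. The 2 changes differed by -1.51 ± 0.43 (adjusted p = 0.0264), or by -0.09 with poly-A centring. That difference lost its call without DFOG replicate 1, GC replicate 2 or 3, MA replicate 1, or DFAT replicate 2 or 3, and was -1.69 to -1.02 with single arrays left out.

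PSME3, the subunit of a nuclear ring activator, was at 8.09, 7.12 and 7.27 in GC and 9.19 and 9.12 in DFOG, against 8.80, 8.86 and 8.52 in MA and 9.75, 8.93 and 8.76 in DFAT. It too was lowest in GC, with no overlap with DFOG. It rose by 1.66 ± 0.33 in DFOG (3.16-fold, limma adjusted p = 0.00327), a call lost with the actin covariate, where the change was 1.25, and with poly-A centring, where it was 0.87. In DFAT its change of 0.42 ± 0.29 was not called, and the difference between lineages, -1.24 ± 0.44, was not called either (adjusted p = 0.0671). That difference was called with 12 separate arrays, with or without the replicate block (-1.23 with it), where the nearly identical DFOG replicates 2 and 3 count apart. It was also called with the actin covariate (-1.37), and was 0.18 and not called with poly-A centring.

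The inhibitor PSMF1, which binds the core, was at 8.61, 8.97 and 9.15 in MA, 8.56, 8.30 and 8.44 in DFAT, 8.96, 8.16 and 8.22 in GC, and 8.21 and 7.75 in DFOG. The samples of DFAT lay just below those of MA, and GC and DFOG overlapped. The changes of -0.47 ± 0.24 in DFAT and -0.47 ± 0.27 in DFOG were not called. With the actin covariate they were -1.20 and -1.02 and both called lower, and with poly-A centring they were 0.16, not called, and -1.26, called lower. A second probe set of PSMF1, dimmer on average, was lower in DFOG at -0.65 ± 0.18 (limma adjusted p = 0.0233) and was not called in DFAT at -0.30 ± 0.16, so the probe sets differ in their call.

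**Figure D3:**
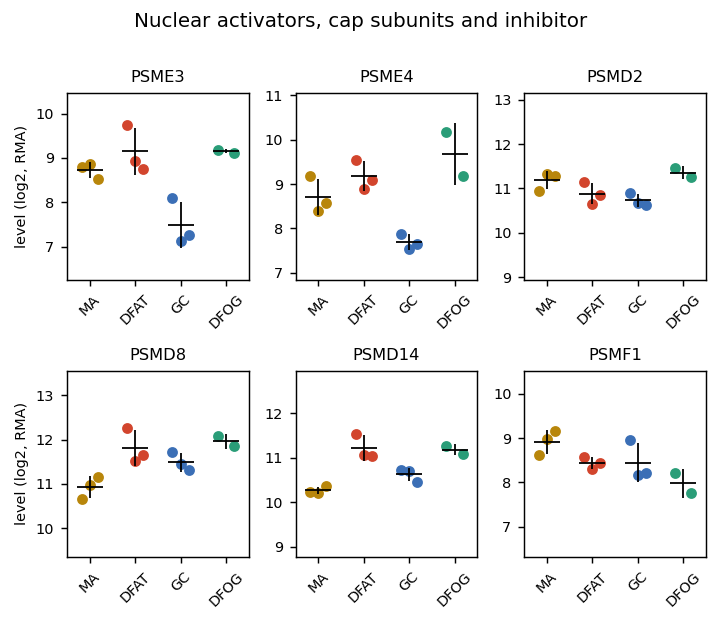
Log2 RMA level in every sample of the nuclear activators PSME3 and PSME4, the cap subunits PSMD2, PSMD8 and PSMD14, and the inhibitor PSMF1, with group mean and SD (n = 3, and n = 2 in DFOG). PSME4 lies at 7.55 to 7.88 in GC and at 8.38 or above in the other groups on the deposited scale, and PSMD14 is higher in every DFAT sample than in any MA sample.

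No gene of the alpha ring, which has 7 genes here, was called in either dedifferentiation. Of all genes with 1 symbol, 41.1% were called in DFAT and 30.6% in DFOG. The changes in the ring were -0.13 to 0.62 in DFAT and -0.18 to 0.59 in DFOG. At an unadjusted p under 0.05 limma gave 1 higher gene in DFAT and none in DFOG, and limma with a trended, robust prior called 0 in both. Array weights called 1 higher in DFOG. The gene in DFAT was PSMA5, named after its values were seen, at 9.99, 10.15 and 10.32 in MA and 11.41, 10.40 and 10.51 in DFAT, a change of 0.62 ± 0.24 (limma adjusted p = 0.0764) that was called without DFAT replicate 2. In DFOG its change of 0.59 ± 0.27 was called without DFAT replicate 1. The DFAT samples lay above MA, with replicate 1 far above the others. The medians over the ring were 0.08 in DFAT and 0.18 in DFOG. The median SE over the ring was 0.21 in DFAT and 0.24 in DFOG.

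Of the 7 constitutive beta subunits, 3 rose in DFAT and none was called in DFOG. Of all genes with 1 symbol, 20.7% were called higher in DFAT and 17.3% in DFOG. PSMB3, a structural subunit without a cutting site, was at 7.89, 8.28 and 8.55 in MA and at 8.81, 9.36 and 10.38 in DFAT, and at 9.20, 10.16 and 9.67 in GC and 10.18 and 10.62 in DFOG. DFAT and DFOG each lay above the cells they came from without overlap, but DFAT was widely spread, with the largest SD of any member in that group, 0.80. The rise in DFAT was 1.28 ± 0.38 (limma adjusted p = 0.0224), and the change in DFOG was 0.72 ± 0.42 and not called. The rise lost its call without MA replicate 1 or 2 or DFAT replicate 3, and single arrays left out gave 0.85 to 1.63.

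PSMB6, the constitutive partner of PSMB9, was at 10.25, 10.56 and 10.81 in MA, 11.49, 10.93 and 11.06 in DFAT, 11.62, 11.35 and 11.24 in GC, and 11.25 and 10.99 in DFOG. It was lower in MA than in all other groups, without overlap. The rise in DFAT of 0.62 ± 0.20 (limma adjusted p = 0.0384) was lost without MA replicate 1 or 2, DFAT replicate 1 or 3 or GC replicate 2, with values of 0.45 to 0.75, and was 0.16 with the actin covariate. PSMB2, also structural, rose by 0.63 ± 0.20 in DFAT (adjusted p = 0.0329), a call lost without MA replicate 1 or 2 or DFAT replicate 1 or 2, with values of 0.50 to 0.75, and its change was -0.01 with the actin covariate. In DFOG, limma gave 1 lower constitutive beta gene at an unadjusted p under 0.05 and called 1 with a trended, robust prior. That gene was PSMB4, a structural subunit, at 12.45, 12.35 and 12.16 in GC and 11.85 and 11.82 in DFOG, a change of -0.49 ± 0.17 (limma adjusted p = 0.0538). It was called lower with 12 separate arrays, with or without the replicate block, where the nearly identical DFOG replicates 2 and 3 count apart.

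Of the cap ATPases, 4 of 5 fell in DFAT and none was called in DFOG. The 5 genes measured encode members of the 6-part ring that unfolds substrates, and 4 of them were lower in DFAT than in MA. Of all probe sets 16.4% were lower, and of all genes with 1 symbol 20.4%. PSMC5 was at 11.62, 12.03 and 12.18 in MA and at 11.20, 10.48 and 10.67 in DFAT, against 10.89, 10.66 and 10.45 in GC and 10.83 and 10.64 in DFOG. MA alone stood high, and the other 3 groups overlapped. The fall was -1.16 ± 0.22 (2.24-fold lower, limma adjusted p = 0.00177), and the change in DFOG was 0.07 ± 0.25 and not called.

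PSMC2 was at 11.80, 12.11 and 12.18 in MA, 11.27, 10.79 and 10.86 in DFAT, 11.05, 10.74 and 10.61 in GC, and 11.02 and 10.91 in DFOG. It had the same shape, with MA above everything else. It fell by -1.06 ± 0.18 in DFAT (2.08-fold lower, limma adjusted p = 0.00104), and its other 2 probe sets were lower as well, at -0.91 ± 0.18 and -1.06 ± 0.23.

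PSMC3 was at 11.86, 11.88 and 12.03 in MA, 11.58, 10.88 and 11.15 in DFAT, 10.79, 10.73 and 10.59 in GC, and 11.27 and 11.16 in DFOG. It lay lowest in GC, and DFOG stood above GC without overlap. It fell by -0.72 ± 0.18 in DFAT (adjusted p = 0.00965) and its change in DFOG was 0.51 ± 0.20, not called. With the actin covariate the fall of PSMC3 was -0.82 and not called, so that 3 of the 5 ATPases were lower, PSMC6 by -1.07. PSMC6 fell by -0.60 ± 0.20 in DFAT (adjusted p = 0.0371), a call lost without MA replicate 2 or 3, DFAT replicate 2 or 3 or GC replicate 2, with values of -0.77 to -0.45. PSMC1 had a change of -0.55 ± 0.32 in DFAT that was not called, though array weights called all 5 ATPases lower, with DFAT replicate 1 at 11.29 and the other DFAT samples at 10.19 and 10.12.

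The median change of the 5 ATPases was -0.72 in DFAT and 0.24 in DFOG, beside -0.07 and -0.02 over all probe sets. The limma fit called 0 ATPases in DFOG, with 1 higher at an unadjusted p under 0.05, 0 with a trended, robust prior and 1 with array weights. PSMC3 was called higher in DFOG with 12 separate arrays, with or without the replicate block, where the nearly identical DFOG replicates 2 and 3 count apart. The difference between the lineages was itself called for 4 of the 5 genes. A called difference in this direction was found for 11.7% of all probe sets and 15.9% of all genes with 1 symbol. The differences were -1.23 ± 0.28 for PSMC2 (limma adjusted p = 0.00788), -1.23 ± 0.27 for PSMC3 (adjusted p = 0.00673), -1.23 ± 0.33 for PSMC5 (adjusted p = 0.0193) and -0.95 ± 0.30 for PSMC6 (adjusted p = 0.039). With poly-A centring the 4 falls in DFAT were not called, at -0.53 to 0.03, and the lineage differences turned to 0.19 to 0.47, again not called. The other 2 probe sets of PSMC2 gave lineage differences of -0.78 ± 0.27 and -0.98 ± 0.35 that were not called. The difference lost its call for PSMC5 without DFOG replicate 1, and for PSMC6 without GC replicate 2 or 3, DFOG replicate 1, MA replicate 2 or 3 or DFAT replicate 2 or 3, with values of -1.44 to -1.08 and -1.12 to -0.80.

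**Figure D4:**
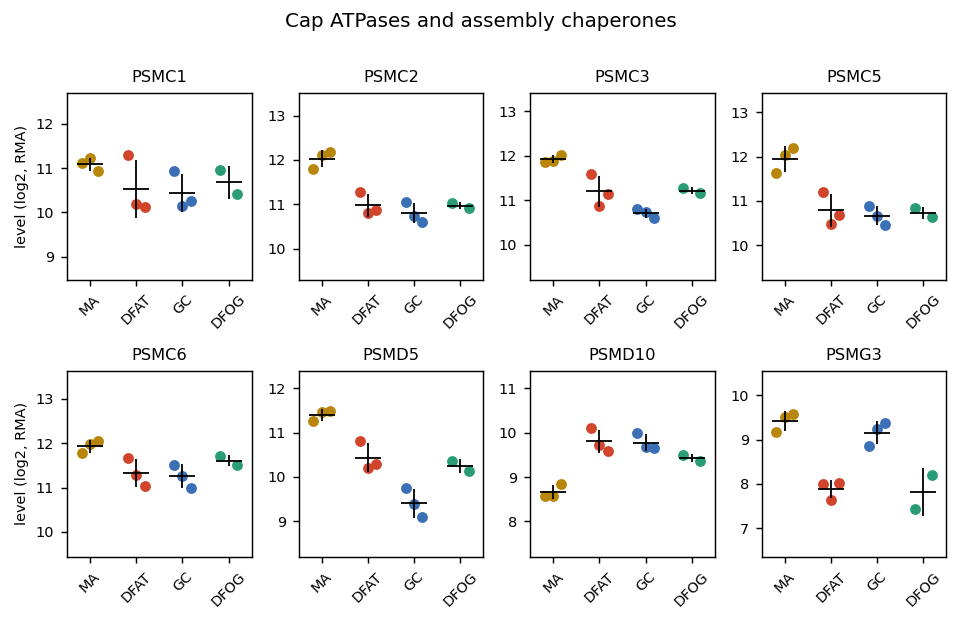
Log2 RMA level in every sample of the 5 cap ATPases and of the assembly chaperones PSMD5, PSMD10 and PSMG3, with group mean and SD (n = 3, and n = 2 in DFOG). PSMC2, PSMC3, PSMC5 and PSMD5 are highest in MA, PSMD10 is lowest in MA, and PSMG3 is low in both DFAT and DFOG. The falls of the ATPases and of PSMD5 in DFAT are not called with poly-A centring.

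Among the other 10 cap subunits, 2 rose in DFAT and 1 in DFOG, or 20% and 10%, beside 20.7% and 17.3% of all genes with 1 symbol. Limma called 0 of them lower, with 3 lower in DFAT and 0 in DFOG at an unadjusted p under 0.05, and 0 in both with a trended, robust prior. Array weights gave 4 lower in DFAT, and the actin covariate called PSMD6 lower there at -0.77. PSMD14, the deubiquitinase that cuts ubiquitin chains off the substrate, was at 10.23, 10.21 and 10.36 in MA, 11.55, 11.07 and 11.04 in DFAT, 10.72, 10.70 and 10.45 in GC, and 11.27 and 11.10 in DFOG. Both cultured groups lay above both isolated groups. It rose by 0.95 ± 0.17 in DFAT (1.94-fold, limma adjusted p = 0.00118), or 0.78 and not called with the actin covariate. Its change in DFOG, 0.56 ± 0.19, was not called (limma adjusted p = 0.0542). It was called only where the nearly identical DFOG replicates 2 and 3 counted apart (12 separate arrays, with or without the replicate block) or DFAT replicate 1 was left out. PSMD8, a lid subunit, rose by 0.88 ± 0.22 in DFAT (adjusted p = 0.00968), or 0.43 and not called with the actin covariate.

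PSMD2, a large subunit on which ubiquitin-binding proteins dock, was at 10.94, 11.32 and 11.29 in MA, 11.14, 10.65 and 10.86 in DFAT, 10.90, 10.66 and 10.64 in GC, and 11.46 and 11.25 in DFOG. DFOG lay above GC, and MA and DFAT overlapped. It rose by 0.62 ± 0.20 in DFOG (limma adjusted p = 0.039), its change in DFAT was -0.30 ± 0.18 and not called, and the lineage difference was -0.92 ± 0.26 (adjusted p = 0.0261). The rise was lost without GC replicate 2 or 3, DFOG replicate 1, MA replicate 2 or DFAT replicate 3, with values of 0.52 to 0.70, and the lineage difference without GC replicate 2 or 3, DFOG replicate 1, MA replicate 2 or 3 or DFAT replicate 2, with values of -1.05 to -0.81. With poly-A centring they were -0.17 and 0.50. The rise was 0.38 and not called with the actin covariate. PSMD12, named after its values were seen, had the largest uncalled change of the subgroup, -0.83 ± 0.34 in DFAT. With 12 separate arrays and the replicate block, PSMD12 was called lower (-0.83 ± 0.17) and PSMD1 higher (0.49 ± 0.17) in DFAT. The replicate numbers of MA and DFAT did not meet the rule for pairing. A dimmer probe set of PSMD11 was lower in DFAT at -0.98 ± 0.33 (adjusted p = 0.0447), where the brighter set, at -0.53 ± 0.22, and the third, at -0.39 ± 0.50, were not called.

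The assembly chaperones changed in different ways, with 1 higher and 2 lower of 4 in DFAT and 1 higher and 1 lower in DFOG. Of all genes with 1 symbol, 20.7% were higher and 20.4% lower in DFAT, and 17.3% and 13.4% in DFOG. PSMG3, a chaperone of alpha ring assembly, was at 9.17, 9.51 and 9.58 in MA, 7.99, 7.65 and 8.01 in DFAT, 8.86, 9.24 and 9.36 in GC, and 7.43 and 8.20 in DFOG. All cultured samples lay below all isolated samples. It fell by -1.54 ± 0.23 in DFAT (2.90-fold lower, limma adjusted p = 0.000339) and by -1.34 ± 0.26 in DFOG (2.53-fold lower, adjusted p = 0.00269), and both calls held with poly-A centring, with the actin covariate and with any array left out. PSMG1, another alpha ring chaperone, had uncalled changes of 0.38 ± 0.16 and 0.40 ± 0.18.

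PSMD5, which holds part of the ATPase ring while it assembles, was at 11.25, 11.46 and 11.47 in MA, 10.81, 10.20 and 10.29 in DFAT, 9.75, 9.38 and 9.09 in GC, and 10.35 and 10.14 in DFOG. The isolated cells stood at both ends, MA highest and GC lowest, with both cultured groups between them. It fell by -0.96 ± 0.21 in DFAT (limma adjusted p = 0.00449) and rose by 0.84 ± 0.24 in DFOG (adjusted p = 0.0234), and the changes differed by -1.80 ± 0.32 (adjusted p = 0.00181). The rise in DFOG was lost without GC replicate 2 or 3 or DFOG replicate 1, with values of 0.68 to 1.01, and was 0.52 and not called with the actin covariate. With poly-A centring the changes were -0.33, 0.05 and -0.38, none called.

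PSMD10, also called gankyrin, a chaperone of the ATPase ring that is studied for its part in cell growth, was at 8.57, 8.57 and 8.84 in MA, 10.10, 9.73 and 9.59 in DFAT, 10.00, 9.68 and 9.65 in GC, and 9.49 and 9.37 in DFOG. MA alone was low. It rose by 1.15 ± 0.18 in DFAT (2.21-fold, limma adjusted p = 0.000414), its change in DFOG, -0.35 ± 0.20, was not called, and the changes differed by 1.49 ± 0.26 (adjusted p = 0.00184). With the actin covariate the rise in DFAT was 0.79 and not called, while the lineage difference stayed called at 1.41.

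Across the 2 lineages, 3 members were called higher in both dedifferentiations (PSMB8, PSMB10 and PSME2), where 5.91% of all probe sets were. PSMG3 was the 1 member lower in both, where 4.04% were, and PSMD5 the 1 member that was lower in DFAT and higher in DFOG, where 1.57% were. None was higher in DFAT and lower in DFOG by limma, where 1.44% of probe sets were, while 1 (PSMB4) was so at an unadjusted p under 0.05 in both and with a trended, robust prior. In neither dedifferentiation were 21 members called. The changes had the same sign in 20 of 40 members (50%) and in 60.0% of all genes. Across the 40 members, which are not independent and share their arrays, the changes in the 2 lineages had a Pearson r of 0.44 and a Spearman rho of 0.32, and r was 0.34 over all genes. The difference between the lineages was called for 9 members (22.5%), 2 with a positive and 7 with a negative sign. The shares were 11.6% and 11.7% of all probe sets (23.3% in all), and 13.2% and 15.9% of all genes with 1 symbol (29.1% in all). The 9 members were PSMB4, PSMD10, PSMC2, PSMC3, PSMC5, PSMC6, PSMD2, PSMD5 and PSME4. For PSMB4 the difference was 0.88 ± 0.22 (limma adjusted p = 0.0142). With poly-A centring 26 members had a positive and 0 a negative called difference, beside 66.8% and 3% of all probe sets. All 9 calls held with the actin covariate, where 7 of the 16 calls in DFAT and 4 of the 8 in DFOG were lost. A call can be lost through a wider SE as well as through a smaller change. For PSME2 in DFOG the change stayed at 0.69 while the SE went from 0.16 to 0.22. For PSMB6 in DFAT the change went from 0.62 ± 0.20 to 0.16 ± 0.29. Over all probe sets 4301 of 7706 calls in DFAT, 3790 of 5971 in DFOG and 5448 of 5593 for the lineage difference were kept with that covariate.

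**Figure D5:**
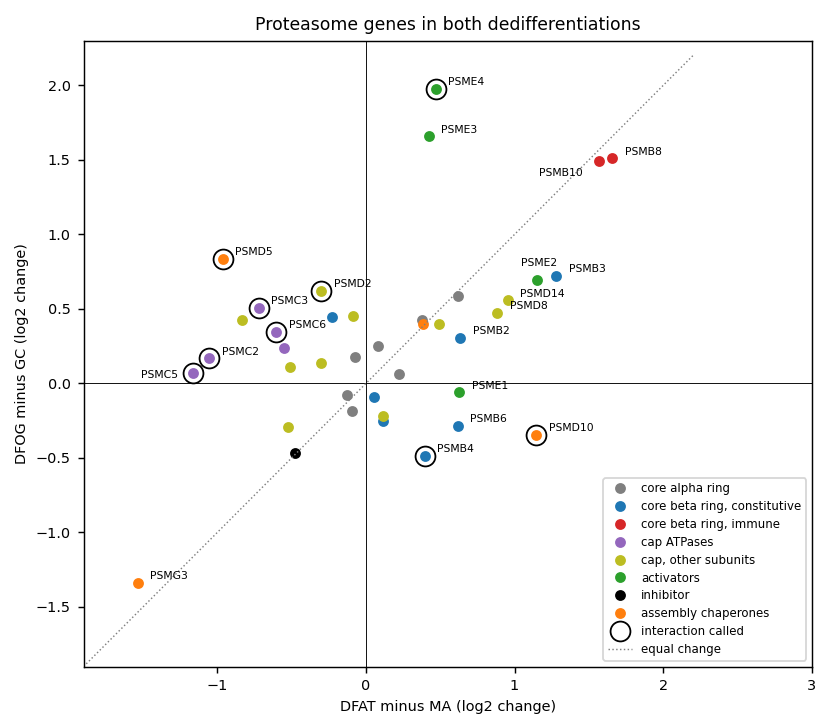
Log2 change of each proteasome gene in DFAT against MA (x axis) and in DFOG against GC (y axis), coloured by subgroup, with a ring around the 9 genes whose change differed between the lineages and a dotted line of equal change. PSMB8, PSMB10 and PSMG3 lie close to the line, the ATPases lie to its upper left and PSMD10 to its lower right. With poly-A centring the differences of PSMC2, PSMC3, PSMC5, PSMC6 and PSMD2 change sign, and those of PSMD5 and PSME4 are not called.

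The isolated cells were also compared with each other, and the cultured cells with each other, in comparisons that share their samples with those above. In MA against GC, 12 members were higher and 5 lower, beside 20.7% and 19.7% of all probe sets (40.5% in all). Of all genes with 1 symbol, 26.8% were higher and 22.6% lower (49.4% in all), against 30% and 12.5% of the members (42.5% in all). The samples of MA and GC did not overlap for 15 members upward and 7 downward, where 28.4% and 24.4% of all probe sets did so. All of the 4 called ATPases were higher in MA (PSMC5 by 1.28 ± 0.22, PSMC2 by 1.23 ± 0.18, PSMC3 by 1.22 ± 0.18 and PSMC6 by 0.67 ± 0.20), as were PSMD5 (1.99 ± 0.21, limma adjusted p = 1.85e-05), PSME3 (1.23 ± 0.29) and PSME4 (1.01 ± 0.29). The constitutive beta subunits went the other way, with PSMB3 (-1.44 ± 0.38), PSMB6 (-0.86 ± 0.20), PSMB5 (-0.76 ± 0.23) and PSMB4 (-0.64 ± 0.15) lower in MA and PSMB1 (0.58 ± 0.20) higher. PSMD10 was lower in MA by -1.12 ± 0.18. The immune subunits were higher in MA than in GC, PSMB8 by 0.88 ± 0.23 (adjusted p = 0.0108) and PSMB10 by 0.91 ± 0.18 (adjusted p = 0.00167), beside 10 of 12 macrophage markers that were also higher in MA, and the part of those cells in this difference was not tested. In DFAT against MA, 9 of the 12 macrophage markers were lower, and PSMB8 and PSMB10 were higher. The cells behind either change were not tested. With poly-A centring, which shifted the median of all probe sets by -1.35 here, 0 members were higher and 29 lower, beside 4.78% and 79.4% of all probe sets.

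Between the cultured populations, PSMB8 and PSMB10 were the only 2 of the 40 members called (5%). Of all probe sets, 3.7% were called higher in DFAT and 4.31% lower, 8% in all. Of all genes with 1 symbol, 4.86% were called higher and 5.5% lower, 10.4% in all. The samples did not overlap for 6 members upward and 4 downward, where 15.3% and 14.7% of all probe sets did so. PSMB8 was 1.02 ± 0.26 higher in DFAT than in DFOG (2.03-fold, limma adjusted p = 0.0357) and PSMB10 0.99 ± 0.20 higher (1.98-fold, adjusted p = 0.00984). Limma called 0 members lower, with 2 lower at an unadjusted p under 0.05 and 0 with a trended, robust prior. A fit on DFAT and DFOG alone called no member, as did the fits without DFOG replicate 1 and with poly-A centring. The call of PSMB8 was also lost without GC replicate 3, MA replicate 3 or DFAT replicate 2 or 3. With single arrays left out the differences were 0.80 to 1.18 for PSMB8 and 0.83 to 1.10 for PSMB10. In order of mean level, PSMB8 and PSMB10 both ran from GC through MA and DFOG to DFAT. The neighbours MA and DFOG in that order were at 6.19 ± 0.33 and 6.83 ± 0.17 for PSMB8 and at 7.65 ± 0.21 and 8.23 ± 0.22 for PSMB10 (mean ± SD), with no overlap of samples, and their difference was not tested.

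Within groups, the members tended to be high in the same library. MA replicate 3 held the highest value of its group for 32 of 40 members, DFAT replicate 1 for 32, GC replicate 1 for 31 and DFOG replicate 1 for 30, against 52.4%, 43.7%, 46.1% and 51.5% of all genes. PSMB8, PSMB10 and PSME1 were among the 7 members that were highest in DFAT replicate 3. Leaving out DFAT replicate 1 changed the counts in DFAT against MA to 7 higher and 10 lower, and leaving out MA replicate 1 gave 6 higher. The median SD of the members was 0.16 in MA, 0.31 in DFAT, 0.22 in GC and 0.15 in DFOG. Calls that held with any single array left out numbered 11 of 16 in DFAT, 6 of 8 in DFOG and 5 of 9 for the lineage difference.

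The genes around the proteasome were read from lists of symbols, of which only some were measured. Their counts stand beside 20.7% of all genes with 1 symbol called higher and 20.4% lower in DFAT, and 17.3% and 13.4% in DFOG. With poly-A centring, tried on these lists after the data were seen, 0 genes outside the interferon list were called lower in DFAT, and in DFOG 1 gene each of the class I and interferon lists was called higher and 0 of the others. Of all probe sets, that centring called 5.58% lower in DFAT and 4.43% higher in DFOG. Of 3 genes of proteasome assembly and transcription, PAAF1, an assembly chaperone of the cap (-0.73), and TXNL1, a cap-bound thioredoxin (-0.59), fell in DFAT, and the small cap subunit SEM1 (0.83) rose in DFOG. Of 19 ubiquitin and first-step enzyme genes, 2 rose and 2 fell in DFAT and 3 rose and 1 fell in DFOG. Among them UBE2C, the conjugating enzyme of the mitotic cyclosome, rose by 3.71 in DFAT, UBE2N rose by 1.23, and UBE2D3 (-0.61) and UBE2E3 (-0.47) fell. In DFOG, UBE2V1 (1.02), UBE2K (0.86) and UBE2D2 (0.81) rose and UBE2E3 (-0.74) fell.

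Of 9 receptors and shuttles of ubiquitinated proteins, BAG6 (0.65) rose and UBXN4 (-0.84) and ZFAND5 (-0.80) fell in DFAT, and ZFAND5 (-0.59) fell in DFOG. Of 12 deubiquitinases, UCHL1, a ubiquitin hydrolase abundant in neurons, rose by 4.19 in DFAT and OTUB1 by 1.63, USP10 (-0.91) and USP8 (-0.59) fell, and UCHL3 (0.96) rose in DFOG. The cytosolic peptidases, which cut the peptides that the proteasome releases, rose in DFOG in 7 of 10 cases, where 17.3% of all genes with 1 symbol did, among them CNDP2 (1.58), RNPEP (1.55), TPP2 (1.41) and NPEPPS (0.81). Their median change in DFOG was 0.65 against -0.02 over all probe sets, and with poly-A centring it was -0.14, with 0 called higher and 1 lower. In DFAT, RNPEP (2.36), THOP1 (0.74) and TPP2 (0.62) rose and LAP3 (-1.21) fell.

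Class I antigen processing genes load proteasome products onto the molecules shown to T cells. Of 11 genes, 6 rose and 1 fell in DFAT, with a median of 1.09, and 1 rose in DFOG, with a median of 0.02. The difference between the lineages was called with a positive sign for 4 of the 11 genes and a negative sign for 1. Of all genes with 1 symbol, 13.2% had a positive and 15.9% a negative called difference. SLA-6 (2.70), SLA-7 (1.75), the peptide transporter subunit TAP1 (1.75) and the chaperone PDIA3 (1.60) rose in DFAT, and SLA-6 (2.67) rose in DFOG. The SLA genes are close copies of each other, so their probe sets may pick up more than 1 gene. TAP1 is the direct neighbour of PSMB8 in the RefSeq annotation of Sscrofa11.1. Its change differed between the lineages by 1.91 (limma adjusted p = 0.00584), where the difference of 0.14 for PSMB8 was not called.

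Interferon response genes went in both directions. Of 27, 6 rose and 8 fell in DFAT, and 3 rose and 2 fell in DFOG. ISG15 (3.29), MX1 (2.70) and the receptor IFNAR1 (1.57) rose in DFAT and the transcription factor IRF1 (-2.96) fell. In DFOG, GBP1 (2.89) and the RNA sensor DDX58 (1.61) rose, and SOCS1 (-1.88) and GBP2 (-1.40) fell. The summed log2 level of the 27 genes was 13.5 to 13.8 in MA, 13.2 to 14.5 in DFAT, 12.6 to 13.0 in GC and 12.9 to 13.0 in DFOG. These ranges overlapped in both lineages. The part of interferon in the changes of PSMB8 and PSMB10 was not tested.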

How the data were processed

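RNA of 12 samples in 4 groups was hybridised to Affymetrix porcine arrays. The deposited values are log2 levels made by the authors with RMA, per the submitters' processing notes, with software settings not given in the sources used here, and the raw scans were not used here. Symbols came from GEO's platform annotation, which can be old. From the deposited table of 24123 probe sets, 124 controls were left out, and limma 3.58.1 in R 4.3.3 fitted 1 mean per group to 11 samples (7 residual degrees of freedom), DFOG replicates 2 and 3 as their mean, with eBayes and Benjamini-Hochberg adjustment over 23999 probe sets. The fit was tested on simulated data. Arrays give no read depth, so their number limits the precision. The members and lists were chosen with earlier results of these data known. Any PSM gene could be named. Given in every sample were the immune subunits, their partners, the PSME genes and PSMF1, the largest called rise and fall of each other subgroup in each dedifferentiation, and the 6 largest called lineage differences. Up to 4 called genes per pathway list were named. Same-numbered samples were checked for pairing by correlating their deviations from group means: the correlations were 0.60, 0.51 and 0.36 for GC with DFOG, which met the rule for pairing (though DFOG 2 and 3 are nearly 1 array), and 0.10, 0.17 and 0.13 for MA with DFAT, the first just under the limit of 0.1. Alternatives were single arrays left out, 12 separate arrays, the replicate block (fitted on 12 separate arrays), fits on 2 groups, repeated quantile normalization, centring on 36 poly-A control probe sets or on array medians, the actin difference as a covariate, array weights, a trended and robust prior, leaving out mean levels under 5, averaging a gene's probe sets, and a 1.5-fold minimum.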

Additional observations from a re-analysis of the deposited data

Results flagged for a closer look

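The change with dedifferentiation differed between the adipocyte and the granulosa lineage for 9 of the 40 genes, by the interaction term of the limma fit (DFAT minus MA, less DFOG minus GC). This share, 22.5%, was no higher than the 23.3% of all probe sets and the 29.1% of all genes with 1 symbol. Of the 9 calls, 5 held with any single array left out. The difference was -1.80 for PSMD5, -1.51 for PSME4, -1.23 for each of PSMC5, PSMC3 and PSMC2, -0.95 for PSMC6 and -0.92 for PSMD2. It was 1.49 for PSMD10 and 0.88 for PSMB4. For PSMC2, PSMC3, PSMC5, PSMC6 and PSMD2 the sign turned when arrays were centred on the poly-A controls. With that centring PSMD5 (-0.38) and PSME4 (-0.09) were not called. Of the 9 calls 2 were kept, those of PSMD10 and PSMB4, both positive, as were 66.8% of all probe sets.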

How the results depend on the processing

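The table is not the raw scans, n is 2 or 3 per group, and the calls lean on the deposited scaling. Leaving out 1 array gave, in DFAT against MA, 6 to 10 members higher and 5 to 10 lower; in DFOG against GC, 5 to 10 higher and 1 to 2 lower; for the lineage difference, 2 to 3 positive and 3 to 12 negative; in MA against GC, 7 to 15 higher and 4 to 6 lower; and in DFAT against DFOG, 0 to 2 higher and 0 to 1 lower. Without DFAT replicate 1 the negative lineage differences numbered 12, and without DFOG replicate 1 they numbered 3. Centring on the poly-A controls gave 18 higher and 1 lower in DFAT, 1 and 11 in DFOG, 26 and 0 for the lineage difference, 0 and 29 in MA against GC, and 0 higher in DFAT against DFOG. Of all probe sets, it called 28.7% higher and 5.58% lower in DFAT, and 4.43% and 39% in DFOG. For the lineage difference it called 66.8% and 3%, and in MA against GC 4.78% and 79.4%. It turned the change in DFOG of PSME2 to -0.10 and of PSMD2 to -0.17, and the lineage difference of PSMC5 to 0.19, PSMC3 to 0.19, PSMC2 to 0.20 and PSMD2 to 0.50; the controls' level was 8.29 in MA, 7.66 in DFAT, 6.95 in GC and 7.74 in DFOG, and the cause was not tested. The actin covariate gave 4 higher in DFAT, and 3 higher and 2 lower in DFOG. Array weights gave 12 lower in DFAT, 12 higher and 2 lower in DFOG, 11 negative lineage differences and 8 lower in MA against GC. In DFOG, 2 were lower with 12 separate arrays, repeated quantile normalization (9 lower in MA against GC) or the trended, robust prior, and 3 with a gene's probe sets averaged. A fit on 2 groups gave 0 higher in DFAT against DFOG. The replicate block, fitted with 12 separate arrays, gave 2 lower in DFOG (both lower without the block too, where DFOG replicates 2 and 3 are also separate) and 1 lower in DFAT against DFOG; for MA and DFAT, where the numbers did not meet the rule for pairing, it gave 12 higher and 7 lower (PSMD12, at -0.83, among the lower), and 3 positive and 9 negative lineage differences, and every sample correlated best with its own number.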
